A study of Mus musculus with 4 samples.

Results

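The Hox clusters were described in ATAC-seq peak lists of mouse dermal fibroblasts, through 38 Hox genes: 10 of Hoxa, 10 of Hoxb, 9 of Hoxc and 9 of Hoxd. A peak was counted for them when its midpoint lay inside the mm10 span of one of these genes or within 10000 bp of it. This gave 82 of the 433013 peaks of the control library, 63 of 585165 in knockout cells, 74 of 340240 with vehicle and 61 of 347438 with rotenone. The 38 genes stand against 21896 protein-coding genes in all. ATAC-seq marks open chromatin through the Tn5 transposase, which inserts sequencing adapters into accessible DNA.

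All 4 libraries came from C57BL/6 mice and carry a label of 100 days, which does not say what the days count. The control was Sod2+/+, and the knockout was labelled as a conditional Sod2-/- mutant; Sod2 encodes the manganese superoxide dismutase of mitochondria. The labels name neither the driver of the deletion nor the region of skin the cells came from. The other 2 libraries were Sod2+/+ fibroblasts given vehicle or rotenone; rotenone blocks respiratory complex I, and its label reads 250 µM. Each group held 1 library, so the values carry no replicate error, no test between groups was possible and every difference is a difference between single libraries.

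Hox genes encode homeodomain transcription factors that specify position along the body axes, and their order along each cluster follows the order of their expression domains from anterior to posterior. Fibroblasts keep part of this code after development, so that cells from different skin sites are known to express different Hox combinations. Silent stretches of the clusters are held by Polycomb repressors and active stretches by Trithorax factors, and Hox proteins bind DNA together with TALE cofactors of the Pbx, Meis and Pknox families.

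Fold enrichment below is the authors' own value for each peak over its local background, and rank 1 is the peak with the highest −log10 p in its list. The 30000 best ranked peaks of a list were called strong. Strong peaks had a median fold of 6.78 in control, 5.49 in knockout cells, 7.13 with vehicle and 5.99 with rotenone, and median widths of 376, 293, 349 and 277 bp in that order. The knockout and rotenone libraries were thus the less enriched of each pair. Of 14 fibroblast markers, 13, 13, 13 and 14 had a peak of any strength within 1000 bp of a gene end, and 4, 3, 4 and 4 a strong one (21.4% to 28.6%, below the 36.7% to 37.3% of all protein-coding genes). Strong gene ends numbered 3, 4, 4 and 2 of 8 melanocyte and Schwann markers, 2, 2, 2 and 2 of 9 keratinocyte markers, and 2, 2, 3 and 2 of 8 endothelial markers. They numbered 1, 0, 1 and 1 of 6 muscle markers, 0, 0, 0 and 1 of 8 immune markers and 0 of 7 adipocyte and pericyte markers in each library. By this measure the fibroblast genes did not stand above all other types. Windows of the fibroblast markers held 1.95 to 2.41 strong peaks per 100 kb over the 4 libraries, against 0.414 to 0.827 for 8 immune markers, 1.06 to 1.59 for 9 keratinocyte markers, 1.39 to 1.78 for 8 endothelial markers, 1.10 to 1.65 for 8 melanocyte and Schwann markers, 1.25 to 1.67 for 6 muscle markers, 1.51 to 1.95 for 7 adipocyte and pericyte markers and 1.66 to 1.68 for all protein-coding windows. Within 10000 bp of the 14 fibroblast genes lay 21, 18, 17 and 17 strong peaks in all. Of these genes, Lum, a dermal proteoglycan, had 0, 1, 0 and 0, and Col1a1, a chain of type I collagen, had 0, 2, 1 and 1. Col3a1, another collagen, and Pdgfrb, a growth factor receptor, each had 1, 0, 1 and 0, and Twist2, a dermal transcription factor, had 1, 0, 0 and 0. The other 9 had at least 1 in each library.

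Start site sequences were taken from RefSeq (GRCm38.p6, the same assembly as mm10), whose table held 24 promoter windows for 22 of the 38 genes. The 250 bases before the start are shown for 5 of them, on the gene's strand and 5′ to 3′, with motif letters in capitals where either strand held them. The motifs searched were the CCAAT box of many promoters, the AP-1 site written as TGANTCA, a homeodomain core of Hox-like factors written as TAATTA and a composite site of Pbx with Hox written as TGATNNAT. Hoxa5 is shown because a peak met its promoter in all 4 libraries, Hoxa13 because the best ranked Hox peak lay just inside that gene, Hoxa11 because no library had a peak there, Hoxd9 because only control and vehicle had one, and the first start of Hoxd11 because it held the single AP-1 site among the 24 windows.
Hoxa5, chr6:52204588-52204837, minus strand: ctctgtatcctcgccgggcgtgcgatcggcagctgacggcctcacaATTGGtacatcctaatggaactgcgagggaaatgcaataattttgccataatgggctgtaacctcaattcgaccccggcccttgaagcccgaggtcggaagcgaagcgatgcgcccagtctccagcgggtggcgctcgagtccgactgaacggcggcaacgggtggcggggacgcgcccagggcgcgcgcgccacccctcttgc
Hoxa11, chr6:52245811-52246060, minus strand: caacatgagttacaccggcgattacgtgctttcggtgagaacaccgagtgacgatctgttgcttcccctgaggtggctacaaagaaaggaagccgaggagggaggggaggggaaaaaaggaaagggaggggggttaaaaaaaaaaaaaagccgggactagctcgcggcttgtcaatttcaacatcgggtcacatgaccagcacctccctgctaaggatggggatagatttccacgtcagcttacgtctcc
Hoxa13, chr6:52260881-52261130, minus strand: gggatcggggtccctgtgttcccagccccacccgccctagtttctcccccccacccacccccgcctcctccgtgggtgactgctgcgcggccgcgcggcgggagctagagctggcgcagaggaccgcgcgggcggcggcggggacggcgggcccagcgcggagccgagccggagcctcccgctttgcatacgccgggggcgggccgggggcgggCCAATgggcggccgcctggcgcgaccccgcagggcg
Hoxd9, chr2:74697513-74697762, plus strand: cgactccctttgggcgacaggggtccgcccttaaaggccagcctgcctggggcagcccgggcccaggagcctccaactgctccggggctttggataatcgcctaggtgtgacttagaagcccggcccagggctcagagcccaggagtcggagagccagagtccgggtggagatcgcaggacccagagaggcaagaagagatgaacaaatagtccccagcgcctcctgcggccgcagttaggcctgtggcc
Hoxd11, chr2:74679308-74679557, plus strand: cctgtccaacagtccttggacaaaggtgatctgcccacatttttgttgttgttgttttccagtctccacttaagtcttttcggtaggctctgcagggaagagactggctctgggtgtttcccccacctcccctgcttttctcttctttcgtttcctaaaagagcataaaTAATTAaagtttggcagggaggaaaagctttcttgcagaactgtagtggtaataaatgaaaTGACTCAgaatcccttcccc
The Hoxa13 stretch was 80.0% G or C, that of Hoxd9 65.2%, of Hoxa5 63.6%, of Hoxa11 52.0% and of Hoxd11 44.8%.

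The clusters also hold microRNA genes whose products are known to target Hox transcripts. Their mature sequences are shown with the seed, bases 2 to 8, in capitals, because the seeds pair the clusters: miR-10a of Hoxb and miR-10b of Hoxd share one, and miR-196a of Hoxb and Hoxc and miR-196b of Hoxa share another.
mmu-miR-10a-5p: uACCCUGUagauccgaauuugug
mmu-miR-10b-5p: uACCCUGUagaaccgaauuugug
mmu-miR-196a-5p: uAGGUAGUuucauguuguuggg
mmu-miR-196b-5p: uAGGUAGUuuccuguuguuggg
No library had a peak over the hairpin of any of these genes. The nearest peak to Mir10a lay 5378 bp away in control, 2595 bp in knockout cells, 4330 bp with vehicle and 5406 bp with rotenone. For Mir196b, between Hoxa9 and Hoxa10, the distances were 2463, 8221, 8176 and 3007 bp in the same order. For Mir10b in Hoxd they were 10020, 10110, 6772 and 2016 bp, so the nearest peak was closest in rotenone, with a fold of 2.49 at rank 283755.

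Strong peaks were scarce in the Hox clusters. Of all strong peaks, 4 in control, 4 in knockout cells, 3 with vehicle and 1 with rotenone lay in the 510.3 kb of Hox windows. That is 0.784, 0.784, 0.588 and 0.196 strong peaks per 100 kb, against 1.68, 1.66, 1.68 and 1.66 in the windows of all protein-coding genes. Peaks of any strength were nearer to that background, though only slightly so in the knockout. They numbered 16.1, 12.3, 14.5 and 11.95 per 100 kb in the Hox windows and 18.6, 23.3, 15.0 and 14.5 in the protein-coding windows.

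The clusters differed among themselves. Hoxa held the most peaks, 35 in control, 26 in knockout cells, 27 with vehicle and 27 with rotenone, of which 2, 2, 2 and 1 were strong. Hoxd held 28, 15, 22 and 11 peaks and 1, 1, 0 and 0 strong ones. The Hoxb windows are the longest at 139.2 kb, since Hoxb13 stands apart from the other genes, and held 10, 11, 14 and 15 peaks with 1, 1, 1 and 0 strong. Hoxc held 9, 11, 11 and 8 peaks and no strong peak in any of the 4 libraries. In all libraries the peaks of Hoxa and Hoxd were denser than those of Hoxc: Hoxa had 21.9 to 29.5 peaks per 100 kb, Hoxd 9.41 to 23.9 and Hoxc 5.89 to 8.10.

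**Figure D1:**
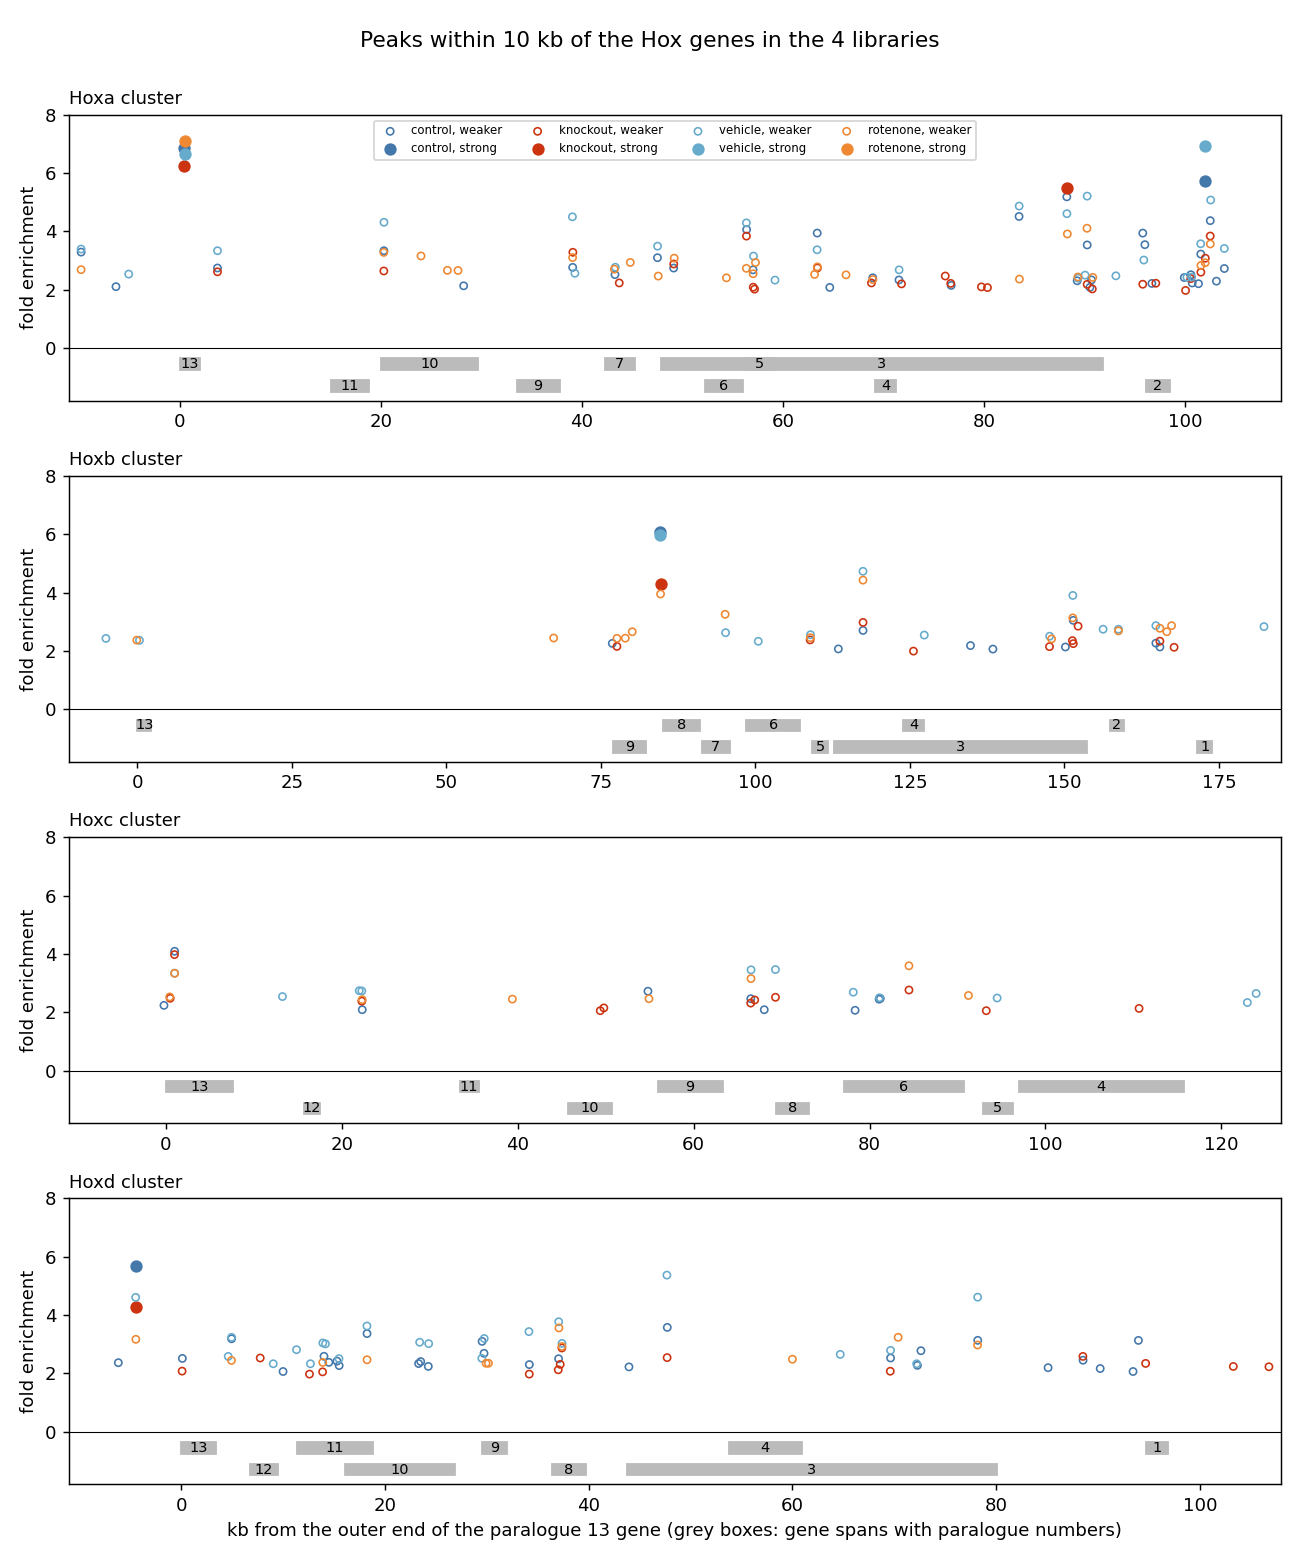
Fold enrichment of every peak within 10 kb of a Hox gene, plotted by its distance in kb from the outer end of the paralogue 13 gene, 1 panel per cluster and 1 colour per library, with filled points for strong peaks and grey boxes for gene spans. The filled points gather at 5 places, with none in Hoxc, and the highest lie at Hoxa13 with folds of 6.26 to 7.12.

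The strong peaks fell at 5 places. The only one strong in all 4 libraries lay inside Hoxa13 (chr6:52260291-52260447), 433 to 444 bp from the start site. Hoxa13 is the most posterior gene of its cluster and is known for its part in the hand, foot and genital tubercle. Its fold was 6.86 at rank 16307 in control, 6.26 at rank 12031 in knockout cells, 6.66 at rank 18928 with vehicle and 7.12 at rank 10080 with rotenone. The peak was narrow, 68, 51, 152 and 150 bp in that order, below the median width of strong peaks in each list.

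At the anterior end of Hoxa, a region 3453 bp from Hoxa2 (chr6:52158810-52158964) was high in control and vehicle and low in the other 2 libraries. Hoxa2 is the most anterior of the Hoxa genes described here and patterns the hindbrain and the second branchial arch. The fold was 5.73 at rank 25917 in control and 6.92 at rank 19310 in vehicle. In the knockout it was 3.08 at rank 66991, and in rotenone 2.93 at rank 129134. A neighbouring region 3789 bp from the gene (chr6:52158140-52158628), not strong in any library and named after its values were seen, ran from a fold of 4.37 in control and 5.08 in vehicle to 3.84 in the knockout and 3.57 in rotenone.

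Inside the long span of Hoxa3 another place (chr6:52172585-52172805) was strong in the knockout alone. Hoxa3 acts in the pharyngeal arches, thymus and neck. Its fold was 5.48 at rank 16675 in the knockout, 5.19 at rank 31113 in control, 4.61 at rank 44748 in vehicle and 3.91 at rank 44150 in rotenone. The control peak thus ranked just outside the strong list. All 4 libraries had a peak here, 221 to 337 bp wide.

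In Hoxb the strong region lay 372 bp outside the span of Hoxb8 (chr11:96278910-96279029), a gene of the trunk that is also known in microglia and blood cells. Its fold was 6.08 at rank 22448 in control, 4.28 at rank 29634 in knockout cells, 5.97 at rank 26147 with vehicle and 3.95 at rank 44662 with rotenone. The knockout peak ranked just inside the strong list. Control and vehicle again had the higher folds.

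The strong region of Hoxd (chr2:74663719-74663859) lay 4366 bp beyond Hoxd13, on the side of Evx2, an even-skipped homeobox gene at the posterior end of the cluster. It had a fold of 5.69 at rank 26134 in control, 4.29 at rank 28299 in knockout cells, 4.61 at rank 46108 with vehicle and 3.17 at rank 91487 with rotenone. Inside the Hoxd cluster itself no peak was strong in any library. The best ranked one there was a vehicle peak inside Hoxd3 (chr2:74715832-74716050) with a fold of 5.37 at rank 31844; the same place had a fold of 3.58 in control and 2.54 in the knockout, and no peak in rotenone.

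Hoxc was led by a region inside Hoxc13 (chr15:102922040-102922221), a gene known for its role in hair and nails. The fold was 4.09 at rank 51549 in control, 3.98 at rank 33683 in knockout cells, 3.34 at rank 92851 with vehicle and 3.33 at rank 72888 with rotenone. It was not strong in any library and is named after its values were seen.

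Just beyond the limit of 10000 bp, 10652 bp from Hoxb9, lay another region that was strong in all 4 libraries (chr11:96260364-96260678). It stands in the long gap between Hoxb13 and Hoxb9, near Mir196a-1, and was not counted. Its fold was 5.53 at rank 24260 in control, 5.17 at rank 17885 in knockout cells, 7.89 at rank 13172 with vehicle and 5.36 at rank 21096 with rotenone.

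Merged over the libraries, the Hox peaks of any strength formed 159 regions, of which 102 were found in 1 library, 19 in 2, 18 in 3 and 20 in all 4. The share in all 4 was 12.6%, close to 13.6% of the 524058 regions formed the same way in the windows of all protein-coding genes. Of the 20, Hoxa held 11 and the other clusters 3 each. A region inside Hoxb3 (chr11:96311674-96311787) had its higher folds in the treated pair, 4.73 in vehicle and 4.43 in rotenone against 2.71 in control and 2.98 in the knockout. A region inside Hoxd8 (chr2:74705159-74705469) did likewise, with 3.77 and 3.56 against 2.50 and 2.31. The median fold of all peaks was also higher in that pair, 2.79 in vehicle and 2.75 in rotenone against 2.40 in control and 2.23 in the knockout. The part of this in the values at Hoxb3 and Hoxd8 was not tested.

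Few Hox genes had a strong peak at either end. One peak lay within 1000 bp of either end of 2 of the 38 genes in control, in the knockout and in vehicle (5.26%, 95% Wilson interval 1.46% to 17.3%) and of 1 in rotenone (2.63%, 0.466% to 13.5%). Of all protein-coding genes, 36.8%, 36.7%, 36.7% and 37.3% had one. The genes were Hoxa13 in all 4 libraries and Hoxb8 in all but rotenone. Neighbouring genes share peaks, so the 38 genes are not independent and the intervals cover counting error only.

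With peaks of any strength, 20, 17, 21 and 20 of the 38 genes had one at an end, against 75.3%, 77.0%, 73.1% and 71.7% of all genes. In Hoxa these were 8, 6, 8 and 7 of 10 genes, in Hoxb 3, 3, 6 and 6 of 10, in Hoxc 1, 4, 2 and 3 of 9 and in Hoxd 8, 4, 5 and 4 of 9. The 8 genes with a peak in all 4 libraries were Hoxa4, Hoxa5, Hoxa6, Hoxa10, Hoxa13, Hoxb8, Hoxc13 and Hoxd8. Hoxa9, Hoxa11, Hoxb1, Hoxb6, Hoxc4, Hoxc11 and Hoxc12, 7 genes in all, had none in any library.

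By paralogue number, 3 of the 4 posterior genes numbered 13 had an end peak in each library. Of the 3 genes numbered 8, 2, 3, 3 and 2 had one. Paralogue 11, known for limb and kidney patterning, had an end peak in 1, 0, 1 and 1 of its 3 genes, each time at Hoxd11. Paralogue 3 had one in 3 of 3 genes in control, in 0 in the knockout and in 1 each in vehicle and rotenone. For Hoxa3, Hoxb3 and Hoxd3 the table's span runs over neighbouring Hox genes, so their outer end may be far from the start in use.

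Hoxa5, which acts in lung and trunk patterning, and its neighbour Hoxa6 share an end peak, which lay at the start of Hoxa5. The fold of this peak was 4.07 at rank 50936 in control, 3.84 at rank 38148 in the knockout and 4.29 at rank 51706 in vehicle. In rotenone it was 2.73 at rank 181718. Hoxa10, a gene of the posterior trunk and uterus, had an end peak with a fold of 3.34 in control, 2.65 in knockout cells, 4.31 with vehicle and 3.28 with rotenone. Both were thus present in all 4 libraries but outside the strong list.

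**Figure D2:**
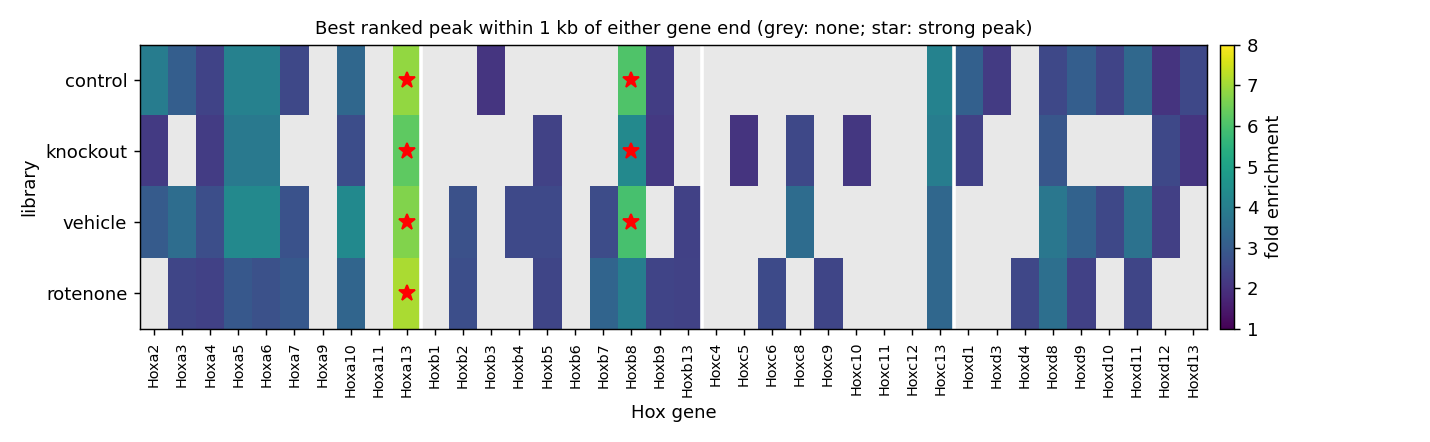
Fold enrichment (colour) of the best ranked peak within 1 kb of either end of each Hox gene, genes in columns by cluster and libraries in rows; grey means no peak and a star a strong peak. Stars stand at Hoxa13 in 4 libraries and at Hoxb8 in 3, and Hoxb and Hoxc are mostly grey.

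The promoter windows, 250 bases before and 50 after the start, gave the same picture by strand-aware starts. None of the 24 Hox windows met a strong peak in any library, against 33.2%, 32.9%, 33.0% and 33.4% of all 21262 windows. A peak of any strength met 5, 3, 7 and 3 of the 24, against 58.9%, 56.3%, 57.4% and 54.3%. The windows met in all 4 libraries were those of Hoxa5 and of the second start of Hoxd11 (chr2:74682073-74682372). At Hoxa5 the nearest peak began within 26 bp of the start site. At Hoxd9 a peak covered the start in control, with a fold of 3.10, and in vehicle, with 2.52, whereas the nearest peak lay 4618 bp away in the knockout and 377 bp in rotenone.

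The base composition of the Hox windows was close to that of all windows. Their median GC content was 57.7% against 56.3%, and their median number of CpG dinucleotides was 14.5 against 13. Open promoters are more often GC rich in these lists, so the windows were also set against others of like GC content. Among the 8 Hox windows with 60 to 70% GC, 4, 3, 5 and 3 met a peak of any strength, against 85.5%, 81.9%, 83.9% and 80.5% of all windows in that band. Of the 8 with 50 to 60% GC, 0 met a peak in any library, against 60.4%, 57.2%, 59.1% and 55.5%. No strong peak met a Hox window in any band.

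**Figure D3:**
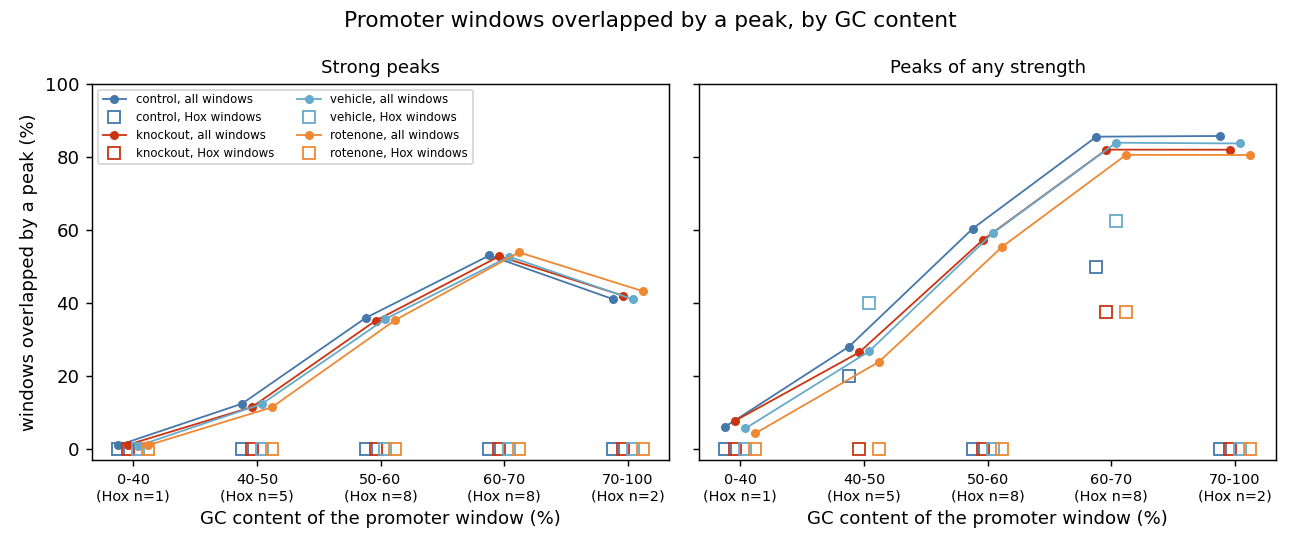
Percentage of promoter windows met by a strong peak (left) or by any peak (right), by GC content of the window; lines join all windows of a library and open squares are its Hox windows. The Hox squares lie at 0 throughout on the left, and on the right at or below 62.5%.

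Motif letters were counted in the 250 upstream bases on both strands. TGANTCA occurred in 1 of 24 Hox windows (4.17%) and 6.13% of all windows. TGATNNAT occurred in 4 (16.7% against 6.68%), those of Hoxa2, Hoxb1, Hoxb8 and the second start of Hoxd11. TAATTA occurred in 2 (8.33% against 4.30%), the 2 starts of Hoxd11. CCAAT occurred in 14 (58.3% against 35.4%), among them Hoxa5 and Hoxa13 as printed above. TAATTA and TGATNNAT can overlap. These are letter matches in a short window and say nothing of binding.

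Strong peaks were also counted on either side of the clusters. Between the outermost members, the 4 clusters together held 3, 4, 3 and 2 strong peaks, or 0.618, 0.825, 0.618 and 0.412 per 100 kb, with the region of the Hoxb gap included. The 500 kb beyond the paralogue 13 genes held 1.3, 1.5, 1.45 and 1.35 per 100 kb and the 500 kb beyond the other ends 2.25, 2.05, 2.35 and 1.75. The contrast was greatest in Hoxc, with 0 inside in every library and 4.6, 4.8, 5 and 3.6 per 100 kb beyond Hoxc4. There Cbx5, which encodes heterochromatin protein HP1 alpha, had 4, 5, 5 and 4 strong peaks within 10000 bp, and Smug1, a uracil DNA glycosylase, had 3, 2, 3 and 2. Around Hoxa the flanks were sparser than the cluster or close to it, at 0.8 to 1.2 beyond Hoxa13 and 0.4 to 1 beyond Hoxa2, against 1.02 to 2.03 inside.

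**Figure D4:**
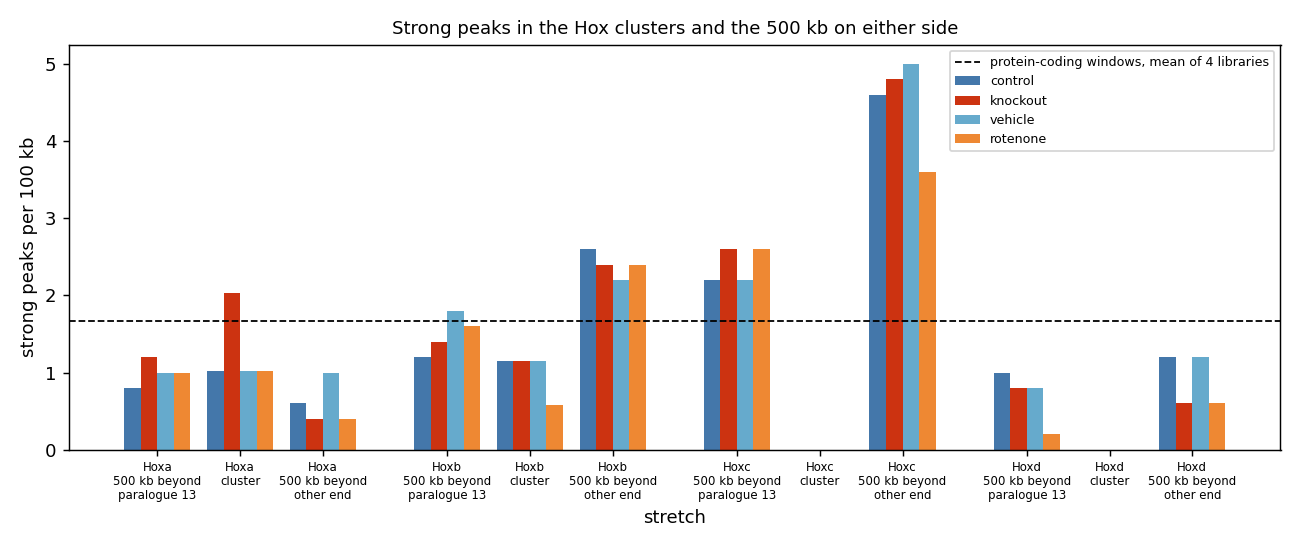
Strong peaks per 100 kb in each Hox cluster and in the 500 kb on either side, 1 bar per library from 0, with the mean of all protein-coding windows as a dashed line. Hoxc and Hoxd have no bars inside the cluster, and the highest bars, 3.6 to 5, stand beyond the Hoxc4 end.

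In the knockout, 1 Hox region was lost and none gained. A strong peak was called lost or gained when it overlapped none of the 60000 best ranked peaks of the other library. Of the 4 strong Hox peaks of control, 1 was lost in the knockout, the region near Hoxa2; over all strong peaks 6.76% were lost. Of the 4 strong Hox peaks of the knockout, 0 were gained, with 5.33% over all. The weaker knockout peak near Hoxa2 ranked 66991, not far outside the limit.

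In rotenone, the region near Hoxa2 was lost as well. It was 1 of 3 strong Hox peaks of vehicle, with 8.04% lost over all strong peaks. The single strong Hox peak of rotenone, in Hoxa13, was also in vehicle, so 0 of 1 was gained against 6.81%. By a looser count of peaks that were strong in one library and not strong in the other, rotenone lost 2 of 3, near Hoxa2 and at Hoxb8, against 24.8% over all. The knockout then gained 1 of 4, in Hoxa3 (22.8% over all), and lost 1 of 4, near Hoxa2 (23.6%).

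Vehicle and control differ in neither Sod2 nor rotenone and give the difference between a pair of libraries without either. By the main rule 0 of 3 and 0 of 4 Hox peaks were called there, with 1.03% gained and 0.847% lost over all strong peaks. By the looser rule the region beyond Hoxd13 was strong in control and not in vehicle, 1 of 4 against 14.1%. These counts of 1 are too small to set apart from the background shares. The 2 comparisons use different controls and so share no library.

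Weak peaks of Hoxd were fewer in the knockout and in rotenone. Because the lists differ in length, each was shortened to its 340240 best ranked peaks, a step chosen after seeing the data. Hoxd then held 25 peaks in control and 9 in knockout cells, 36.0% of the control number, and 22 with vehicle and 9 with rotenone, 40.9%. The other clusters did not show this in both comparisons. Hoxa had 30 and 20, and 27 and 26; Hoxb had 5 and 7, and 14 and 15; Hoxc had 6 and 7, and 11 and 8. Protein-coding windows as a whole held 94.2% of the control number in the knockout and 94.8% of the vehicle number in rotenone.

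Many of these places were met in the shortened lists of control and vehicle but not in those of the other libraries. Of 17 Hoxd regions found in at least 2 of the equal lists, 8 (47.1%) were in control and vehicle only, 0 in the knockout and rotenone only, and 2 in all 4. In the protein-coding windows 16.8% of such regions were in control and vehicle only, 10.7% in the knockout and rotenone only and 40.7% in all 4. The 8 lay in Hoxd11, in Hoxd10 (2 regions), in or near Hoxd9 (3) and in Hoxd3 (2). Hoxd9, Hoxd10 and Hoxd11 are the genes of the middle and posterior cluster, known for patterning of the limb and lower trunk. The folds of the 8 regions in control and vehicle ran from 2.24 to 3.43, and their best rank was 85157, so all were weak peaks. The full knockout list did hold a weaker peak at the region near Hoxd9 (chr2:74702284-74702443), with a fold of 1.98 at rank 573799. It also held one at a region in Hoxd3, with a fold of 2.08 at rank 450643. Shortening the list removed both.

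One example was a pair of regions at the start of Hoxd9. The first (chr2:74697710-74697811) had a fold of 3.10 in control and 2.52 in vehicle, and the second (chr2:74697892-74698024) 2.69 and 3.20. Inside Hoxd10 a region (chr2:74691488-74691791) had 2.41 and 3.07. The knockout and rotenone libraries were also the less enriched ones, with the lower median fold and width of strong peaks and with a −log10 p at rank 30000 of 16.03 and 12.26 against 21.65 in control and 18.16 in vehicle. The part of this in the Hoxd counts was not tested.

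Partners and regulators of the Hox proteins were described from lists of related genes. Of 9 TALE cofactors, 7, 6, 7 and 6 had a strong end peak in control, knockout, vehicle and rotenone. Pknox2 had 12 strong peaks within 10000 bp of it in every library, and Meis2 had 6, 4, 5 and 4. Meis3 had none in any library, and Pbx2 had 3 in each library but none at a gene end. Pbx3 had a strong end peak in control and vehicle and none in the others. By the main rule, 1 of the 36 strong peaks of the list in the knockout was gained (5.33% over all strong peaks), at Pbx4. In rotenone 2 of 35 were gained (6.81%), 1 of them at Meis1.

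Of 24 Trithorax and Polycomb genes, 13, 12, 14 and 13 had a strong end peak. Among them were Ezh2 and Suz12, subunits of the complex that methylates histone H3 on Polycomb targets, and Men1, a partner of the Kmt2 methyltransferases, in all 4 libraries. Eed, another subunit of that complex, had one in control, vehicle and rotenone and none in the knockout. Kmt2a, the histone methyltransferase that maintains Hox expression, had one in the knockout and in rotenone and none in the others. Phc2, a Polycomb repressor subunit, had 9 strong peaks in control and 8 in vehicle against 4 in the knockout and 3 in rotenone. Over the list, 4 of the 42 strong peaks of control were lost in the knockout (6.76% over all strong peaks), 2 at Phc2 and 2 at Jarid2. In rotenone 3 of the 42 of vehicle were lost (8.04%), 2 at Phc2 and 1 at Bmi1. Gains were 2 of 37 in the knockout (5.33% over all), at Cbx7 and Kdm6b, and 1 of 38 in rotenone (6.81%), at Phc3.

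The next list held other positional transcription factors of mesenchyme, of the homeobox, T-box, forkhead and other families. Of its 30 genes, 6, 7, 5 and 6 had a strong end peak. Dlx5, Emx2, Msx1 and Tbx3 were among those with one in all 4 libraries. Tbx15, which patterns the dorsal and ventral coat and skin, had 4 strong peaks in control, 1 in knockout cells, 3 with vehicle and 3 with rotenone, and lost 1 region in the knockout. Tbx2 and Tbx18 lost 1 each in rotenone, and Emx2 gained 1 in the knockout. Over the list, 2 of 20 strong peaks were lost and 1 of 18 gained in the knockout, and 2 of 19 lost and 0 of 16 gained in rotenone, with the same shares over all as above. A Tbx3 region was lost in the knockout and also in vehicle, both against the same control. That control peak (chr5:119671539-119671574) ranked 10299 by −log10 p but had a fold of only 1.98. The median fold was 6.78 for strong control peaks and 2.40 for all control peaks.

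Of 15 genes next to the clusters, 9, 9, 9 and 8 had a strong end peak. Evx1 and Evx2, the even-skipped genes that border Hoxa and Hoxd, had none. Of 9 ParaHox and Evx-like genes, 2, 1, 1 and 2 had one, and Mnx1 was the only gene of this list with a strong end peak in all 4 libraries. Cdx1 had 1, 1, 2 and 1 strong peaks within 10000 bp and Cdx2 had 2, 1, 2 and 1, none of them at a gene end. In this list no region was called in the knockout or in rotenone.

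Signals that act on Hox genes during development made up the last list. Of 15 retinoic acid, Wnt and Gdf genes, 0, 3, 0 and 2 had a strong end peak. Those were Crabp2 and Rxrb in the knockout and in rotenone, and Gdf11 in the knockout. Rarb, a retinoic acid receptor, had 18, 17, 18 and 19 strong peaks within 10000 bp. Aldh1a1, which makes retinoic acid, had 4 in control and 4 in vehicle against 8 in the knockout and 7 in rotenone. In the knockout, 3 of its 45 strong peaks were gained (5.33% over all strong peaks) and 3 of the 36 of control were lost (6.76%). In rotenone, 5 of its 44 were gained (6.81%) and 1 of the 39 of vehicle was lost (8.04%). At Aldh1a1 a region (chr19:20496641-20496753) was gained in the knockout with a fold of 4.83 at rank 21731, and a region at nearly the same place was gained in rotenone with a fold of 4.79 at rank 27161.

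**Figure D5:**
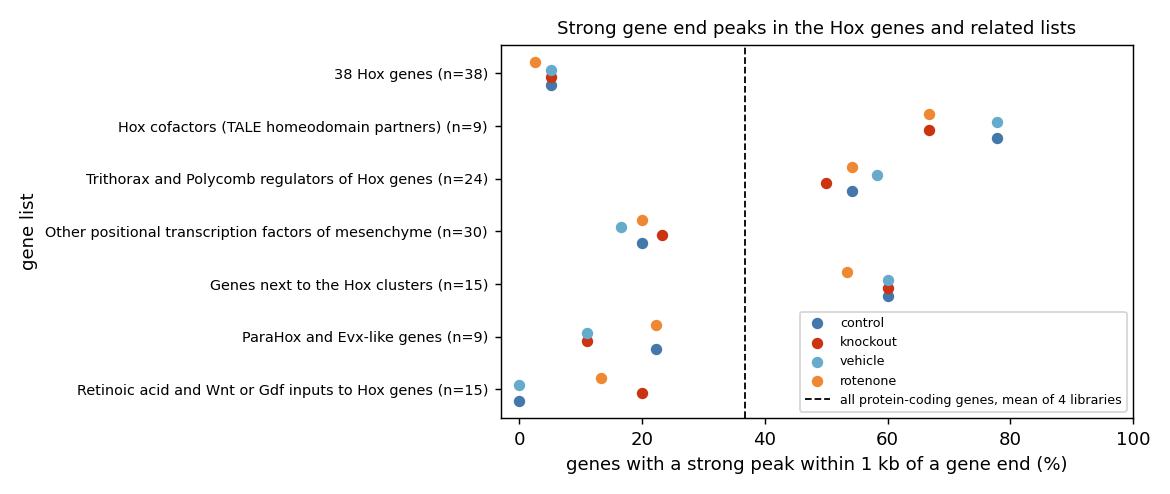
Percentage of genes with a strong peak within 1 kb of a gene end, for the 38 Hox genes and 6 related lists, 1 point per library, with the mean of all protein-coding genes as a dashed line. The Hox genes lie at 2.63% to 5.26%, and the TALE cofactors lie farthest right.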

How the data were processed

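ATAC-seq peaks of 4 libraries of mouse dermal fibroblasts were analysed, 1 per group. Bowtie2, MACS2, bedtools, HOMER and the mm10 build are named in the submitters' processing notes; for versions, settings, read filters and any Tn5 shift, nothing is given in the sources used here. Each library has 1 peak list without a header. Its deposited fold enrichment was read as a ratio over local background, in MACS2 column order. The deposited −log10 p ranked the peaks, ties by fold. The deposited −log10 q was at least 1.00 in each list. The deposited score was not used. Depth is unknown, since no read counts were used here. Column 7 to 9 values belong to 1 peak each and served only to describe and rank peaks within a list.

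Positions are 1-based mm10. Gene spans came from the RefSeq table of GRCm38.p6, in which all 38 genes matched; exons, introns and UTRs were not told apart. Overlap meant 1 bp. Regions were named after the gene with the nearest span, so a region inside a long span was named after that gene. Named were, per cluster, up to 3 merged strong regions by mean rank, every called region, every gene by its end peaks, and in other lists members with a called region or the most strong peaks; other examples were picked after their values were seen. Single values of some list members are not reported here. The members and lists were chosen with earlier results of these data known. The overlap code was tested on the real lists, after all partner peaks overlapping 200 strong peaks were removed. It called 200 of 200 in each comparison, which checks the code only. Promoter strands were checked on 816 of 816 overlapping windows. Shares of Hox genes with a strong end peak have 95% Wilson intervals. Tried instead were 15000 or 60000 strong peaks, a ranking by fold, 50% overlap, other partner lists, and windows of 5000 and 2500 bp. The tools were numpy 2.4.6, scipy 1.17.1, pandas 2.3.3 and matplotlib 3.10.9 under Python 3.11.15.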

Additional observations from a re-analysis of the deposited data

How the results depend on the processing

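No paired analysis was possible because each group held 1 library. With 15000 strong peaks, strong Hox peaks numbered 0 in control, 1 in the knockout and 0 in vehicle, genes with a strong end peak 0, 1 and 0, and lost regions 0 in the knockout and 0 in rotenone. With 60000, strong peaks numbered 11, 8, 14 and 7 in control, knockout, vehicle and rotenone, and genes with a strong end peak 6, 5, 5 and 2. Lost regions were then 2 in the knockout, 4 in rotenone and 1 in vehicle, and gained regions 1 in rotenone and 1 in vehicle. With 50% of the peak covered, vehicle gained 1. With partner peaks of any strength, 0 were lost in the knockout and 0 in rotenone, so a weaker peak remained at the region near Hoxa2. With a partner list of 30000, the knockout gained 1, rotenone lost 2 and vehicle lost 1. Ranking by fold enrichment and the windows of 5000 and 2500 bp moved no count by over 1.5 times. These counts are small, and leaving out a library was not possible with 1 per group. Lists without depth cannot show whether a missing weak peak was closed chromatin or fell below the caller's threshold.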
